A study of Mus musculus with 8 samples.

Results

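The Sox genes encode transcription factors that bind DNA through an HMG box, a domain that sits in the minor groove and bends the helix. Sox proteins mostly act beside a partner factor on composite sites, and related members of a group often stand in for each other. In the brain, group B1 (Sox1, Sox2) keeps neural progenitors and is also used by astrocytes, group B2 (Sox21) counters B1, group C (Sox4, Sox11) acts in newborn neurons, group D (Sox5, Sox6) in deep layer neurons, interneurons and precursors of oligodendrocytes, and group E (Sox8, Sox9, Sox10) in glia. The members described here were chosen by name as Sox1, Sox2, Sox4, Sox5, Sox6, Sox8, Sox9, Sox10, Sox11 and Sox21. They are 10 of the 13996 genes with expression values, and all 10 were among the 13982 genes tested.

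RNA was measured in the brain cortex of male C57BL/6 mice in 2 groups. The normal group (4 samples) ate a conventional diet, and the HFD group (4 samples) ate a diet of 60% fat by weight for 8 weeks from an age of 8 weeks. All were 16 weeks old when the cortex was taken, and the mice on the high fat diet (HFD mice) had gained weight and handled glucose poorly. The mice carried no named transgene or deletion. The labels number the samples 1 to 4 within a diet and do not say whether any mice were pooled. Each sample is called a mouse below. The p-values take these samples as the unit and weigh a difference between diets against the variation among them.

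Values are FPKM, fragments per kilobase of transcript scaled to the mapped reads, listed in steps of 0.1. The depth per mouse is unknown, and the sum of FPKM lay between 562431 and 639142. Marker genes of the cortex were well expressed, with a summed FPKM of 10 projection neuron markers of 642 to 943 in normal mice and 931 to 1272 in HFD mice. Markers of neighbouring regions moved with the diet. The summed FPKM of the cerebellar markers was 34.0 to 392 in normal mice and 25.6 to 33.9 in HFD mice, and normal mice 2 and 3 stood highest. None of 8 cerebellar markers rose and 5 fell, among them Cbln3 and Fat2 (median log2 difference -1.89). Gabra6, a defining gene of cerebellar granule cells, was listed at 0 in an HFD mouse. Of 10 striatal markers 9 fell (median -1.75), and their sum was 262 to 466 against 101 to 115. Among thalamic markers 3 of 8 fell (median -0.75), with Shox2 listed at 0 in a mouse, and 6 of 6 ependymal markers fell (median -1.59). Choroid plexus markers summed to 346 to 734 in normal mice and to 22.1 to 949 in HFD mice, where mouse 4 was high, and 3 of 8 fell (median -1.63). That count was 8 without HFD mouse 4 and 0 without any 1 of normal mice 1 to 3 and HFD mice 1 to 3, where 3 to 6 had an unadjusted p below 0.05 by limma. With the cerebellar covariate, 9 of 10 striatal markers fell, and none of the thalamic, choroid plexus or ependymal markers passed (0, 0 and 1 at an unadjusted p below 0.05). Endothelial markers were mixed, with 1 higher and 2 lower of 8 (median -0.16). None of 9 microglial markers passed limma's adjusted threshold and 1 had an unadjusted p below 0.05 (median -0.02). Over all genes tested the median log2 difference was 0.0031.

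Sox8, a group E factor of oligodendrocytes, had the highest level of the 10 genes on the FPKM scale, which is per length, and Sox1 the lowest. The mean over 8 mice was 19.6 for Sox8, 14.4 for Sox2, 14.2 for Sox10, 8.21 for Sox5, 4.93 for Sox6, 4.09 for Sox4, 3.65 for Sox11, 3.06 for Sox9, 2.46 for Sox21 and 2.13 for Sox1. Sox8 stood above Sox2, Sox10 above Sox5 and Sox5 above Sox6 in 8 of 8 mice, with no overlap of their ranges in either diet. The ranges of Sox2 and Sox10, of Sox4 and Sox11, and of Sox21 and Sox1 overlapped in each diet. Sox6 overlapped Sox4 in normal mice only, Sox11 overlapped Sox9 in HFD mice only, and Sox9 overlapped Sox21 in normal mice only. For the lowest genes the rounding is coarse, as a step of 0.1 is 4.71% of the mean of Sox1 and 0.51% of that of Sox8.

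**Figure D1:**
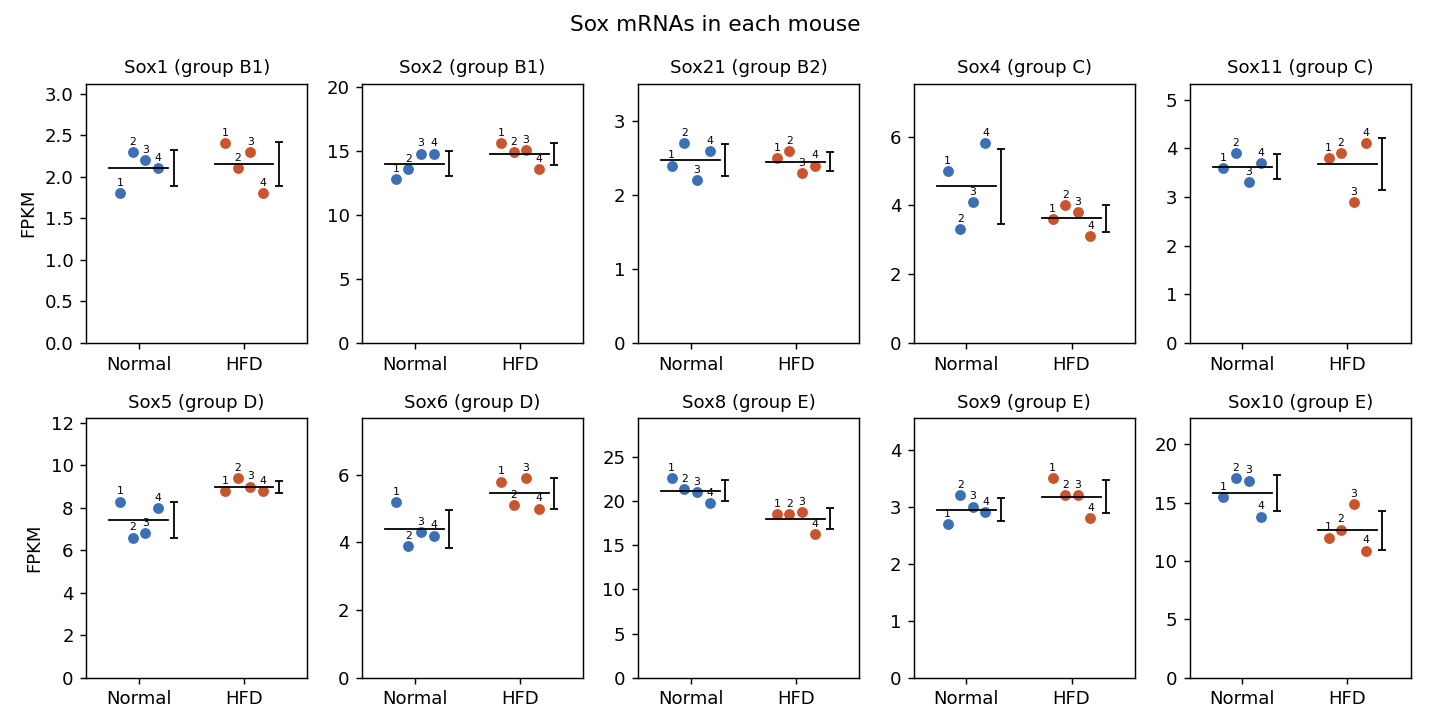
FPKM of each of the 10 Sox genes in the 4 normal mice and the 4 HFD mice, on axes that start at 0. Points are mice with their replicate number, horizontal lines are means and bars are the SD. Sox5 in HFD mice (8.8 to 9.4) lay above every normal mouse, and Sox8 (16.3 to 18.8) lay below every normal mouse.

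Between the diets, Sox5 and Sox6 rose and Sox8 and Sox10 fell in HFD mice. The shifts were small, between 1.18-fold and 1.26-fold. Log2(FPKM + 0.1) was compared by limma with Benjamini-Hochberg adjustment over 13982 genes, and a gene passed at an adjusted p below 0.05. By this test 4 of 10 Sox genes passed, where 33.1% of all genes passed. In the upward direction 2 of 10 passed beside 17.7% of all genes, and in the downward direction 2 of 10 beside 15.3%. A change over 50% in addition was reached by none of the 10 and by 7.13% of all genes. The 4 values of one diet all lay beyond those of the other for 2 of 10 Sox genes and for 31.9% of all genes. The share of Sox genes called thus lay near that of all genes. The median log2 difference of the 10 was 0.02, with 6 above 0 and 4 below.

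Each of the 4 calls was lost when the mean level of the cerebellar markers entered limma as a covariate, which left 0 of 10 Sox genes past the adjusted threshold and 2 with an unadjusted p below 0.05. The same fit called 544 of all genes in place of 4626. The covariate, the mean log2(FPKM + 0.1) of the markers, was 1.42 to 4.97 in normal mice and 0.52 to 0.87 in HFD mice. Its values did not overlap between diets, so this covariate and the diet cannot be fully separated. A call can then be lost without a smaller difference, as for Sox8 (-0.31 with the covariate and -0.23 without). Without normal mice 2 and 3, a choice made after seeing the data, 1 of 10 passed, and that gene was Sox4.

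**Figure D2:**
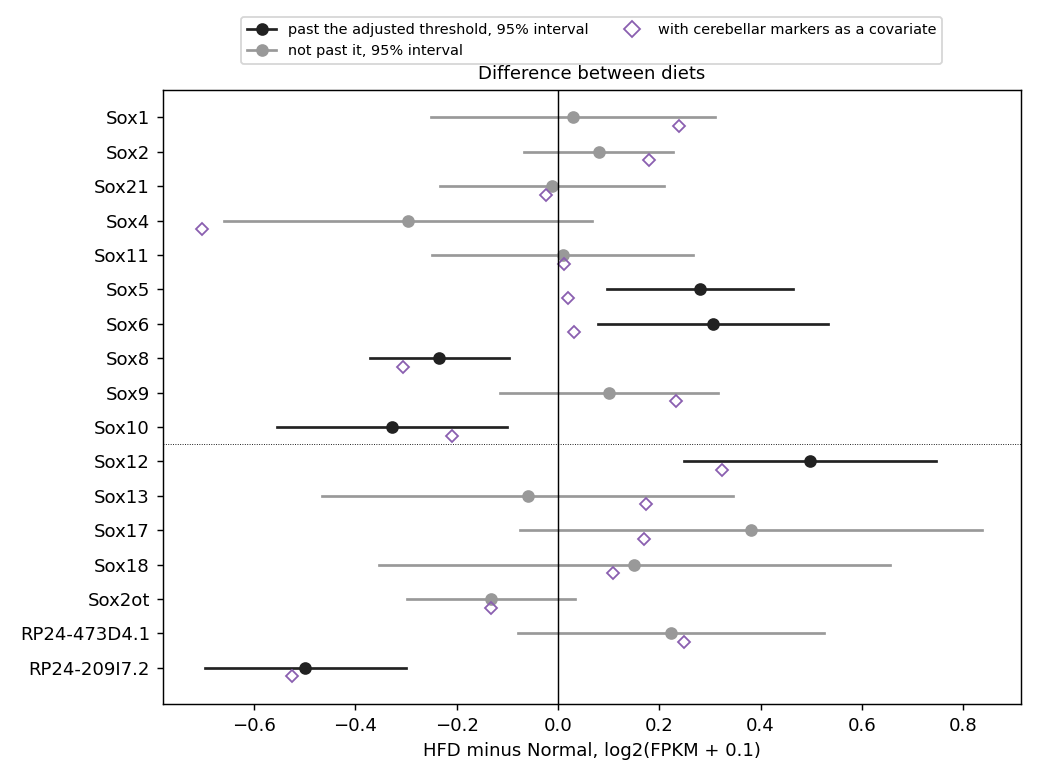
Difference between diets (HFD minus Normal, log2(FPKM + 0.1)) of the 10 Sox genes, and below the dotted line of 4 other Sox genes and 3 RNAs that overlap a Sox gene, with 95% intervals from limma. Black marks passed the adjusted threshold, grey marks did not, and open diamonds are the values with cerebellar markers as a covariate, where Sox5 and Sox6 moved to 0.02 and 0.03 and Sox8 to -0.31.

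Sox8 works beside Sox10 in the oligodendrocyte lineage. The gene has 3 exons in its longest basic transcript and lies on the minus strand of chromosome 17 (25565892 to 25570686, GRCm38). Its FPKM was 22.6, 21.4, 21.0 and 19.8 in normal mice 1 to 4, and 18.5, 18.5, 18.8 and 16.3 in HFD mice 1 to 4. All 4 HFD mice lay below all 4 normal mice, and mouse 4 was lowest. The mean was 21.2 ± 1.15 (SD, n = 4) and 18.0 ± 1.16 (SD, n = 4), and the log2 difference was -0.23 (SE 0.06, adjusted p = 0.0181 by limma). Sox8 passed with each mouse left out in turn, in 8 of 8 fits. Its difference was -0.31 with the cerebellar covariate (adjusted p = 0.127) and -0.23 without normal mice 2 and 3 (adjusted p = 0.0781).

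Upstream of Sox8, a long noncoding RNA named RP24-209I7.2 runs on the opposite strand. Its FPKM was 16.8 ± 1.16 in the normal group and 11.9 ± 1.40 in the HFD group (SD, n = 4 each), a log2 difference of -0.50 (SE 0.09, adjusted p = 0.0034 by limma). Neither gene overlapped between diets. The difference of the noncoding RNA was -0.53 with the cerebellar covariate (adjusted p = 0.0913 by limma). Without normal mice 2 and 3 it was -0.47 (adjusted p = 0.0254). Of 4 annotated starts of this RNA, 3 lie upstream of the Sox8 start, and the nearest is 121 bp away. The shared promoter is printed because both RNAs it lies between were lower in HFD mice. It is the RefSeq window of Sox8 on GRCm38.p6, minus strand, chr17:25570637-25570936, with 250 bases before and 50 after the start, and capitals mark the 120 bases between the start of Sox8 and the nearest start of the noncoding RNA.
Sox8: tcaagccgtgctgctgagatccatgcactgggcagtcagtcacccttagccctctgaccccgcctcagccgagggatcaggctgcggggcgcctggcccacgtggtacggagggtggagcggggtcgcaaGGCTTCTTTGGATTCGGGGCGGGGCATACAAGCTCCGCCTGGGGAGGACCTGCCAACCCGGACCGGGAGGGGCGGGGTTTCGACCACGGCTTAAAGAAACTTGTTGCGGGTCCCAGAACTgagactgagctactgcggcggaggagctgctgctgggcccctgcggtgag
The window held 66.3% G and C and 21 CpG, of which 9 lie in the capitals, where the median of 32817 RefSeq windows of the same length held 7 CpG. Exons of the RNA and of Sox8 share 329 bp on opposite strands. How the counting treated strand is not given in the sources used, so reads from these 329 bp cannot be told apart.

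Sox10, which drives the myelin genes in oligodendrocytes and is used by their precursors too, lies on the minus strand of chromosome 15 (79154908 to 79165240) and has 5 exons. Its FPKM was 15.5, 17.1, 16.9 and 13.8 in normal mice 1 to 4, and 12, 12.7, 14.9 and 10.9 in HFD mice 1 to 4. HFD mouse 3 lay above normal mouse 4, and the other HFD mice lay below every normal mouse. From 15.8 ± 1.53 (SD, n = 4) the mean went to 12.6 ± 1.69 (SD, n = 4), a log2 difference of -0.33 (SE 0.10, adjusted p = 0.0336 by limma). With 1 mouse removed at a time, the call held in 2 of 8 fits, those without normal mouse 4 and without HFD mouse 3, and the adjusted p reached 0.0879 without normal mouse 2. With the cerebellar covariate the difference was -0.21 (adjusted p = 0.512), and without the variance trend the adjusted p was 0.0502.

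Sox9, the group E factor of astrocytes and of glial specification, did not pass. It lies on chromosome 11 (112782224 to 112787760, plus strand). In normal mice 1 to 4 it was 2.7, 3.2, 3.0 and 2.9, and in HFD mice 1 to 4 it was 3.5, 3.2, 3.2 and 2.8. The diets overlapped widely. The log2 difference was 0.10 (95% interval -0.11 to 0.32, adjusted p = 0.442 by limma).

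Within each mouse, the log2 level of a Sox gene was set against that of a relative, which does not depend on how a mouse was scaled. For 7 pairs, all 70 ways to assign the 8 mice to diets were enumerated in an exact two-sided test, and 0.0286 is the smallest p it can give. Sox8 minus Sox9 had means of 2.80 ± 0.15 in normal mice and 2.47 ± 0.07 in the HFD group (SD, n = 4 each), a shift of -0.33 (exact p = 0.0286, adjusted over 7 pairs 0.1). Sox9 minus Sox10 had means of -2.38 ± 0.12 and -1.95 ± 0.18 (SD, n = 4 each), a shift of 0.43 (exact p = 0.0286, adjusted 0.1). In each of these pairs the diets did not overlap, and neither passed after adjustment. With 4 mice per diet, a pair could pass only if most of the 7 pairs reached the smallest p. Not passing therefore does not measure the size of a shift. Sox8 minus Sox10 shifted by 0.09 (exact p = 0.2, adjusted 0.467, n = 4 each), with overlap. The shift was -0.03 for Sox5 minus Sox6 (exact p = 0.8, adjusted 0.8, n = 4 each), with overlap between diets. For Sox4 minus Sox11 it was -0.31 (exact p = 0.286, adjusted 0.5, n = 4 each), for Sox1 minus Sox2 -0.05 (exact p = 0.571, adjusted 0.667, n = 4 each) and for Sox2 minus Sox21 0.09 (exact p = 0.429, adjusted 0.6, n = 4 each).

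**Figure D3:**
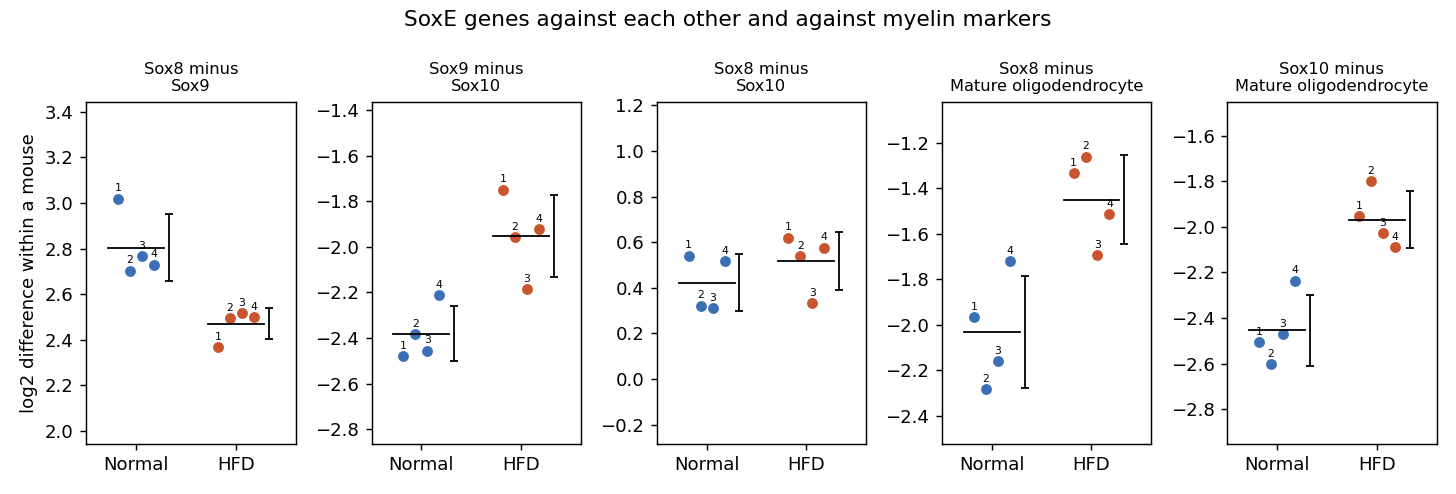
Log2 difference within each mouse between group E genes, and between Sox8 or Sox10 and the mean of 14 mature oligodendrocyte markers, for 4 normal mice and 4 HFD mice (points with replicate numbers, lines are means, bars are the SD, axes do not start at 0). Sox8 minus Sox9 had a mean of 2.80 in normal mice and 2.47 in HFD mice without overlap, and Sox8 minus the markers stood at -2.03 in normal mice and -1.45 in HFD mice.

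The genes that Sox10 is known to activate were mostly lower in HFD mice. Of 10 such targets 6 fell and 1 rose (median log2 difference -0.68), and 4 of the 10 are also markers of mature oligodendrocytes. Mag, an adhesion protein of the inner myelin face, fell by 0.87 on the log2 scale (SE 0.16, adjusted p = 0.0036 by limma), and the gap junction gene Gjb1 fell by 0.83. The exception in direction was Cspg4, the NG2 proteoglycan of oligodendrocyte precursors, which rose by 0.37 from 2.9 to 3.2 FPKM in normal mice to 3.9 to 4.1. Without normal mice 2 and 3, 4 of the targets fell, and with the cerebellar covariate none passed and 4 had an unadjusted p below 0.05.

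All 14 markers of mature oligodendrocytes fell (median -0.85). Ugt8a, which makes the lipid galactosylceramide of myelin, fell by 1.04, from a mean of 31.8 to 15.2 FPKM, and Mog, Mobp and Mal fell by 0.95, 0.93 and 0.91. The count was 12 to 14 with a mouse left out, 9 without normal mice 2 and 3, and 0 with the cerebellar covariate, where 10 had an unadjusted p below 0.05 by limma. In bulk cortex, fewer oligodendrocytes and less RNA per cell cannot be told apart. Of 10 striatal markers 9 fell too, as did 6 of 6 ependymal markers. The part of regional tissue in the oligodendrocyte values was not tested beyond these fits. The log2 differences of Sox8 and Sox10 between diets were smaller than the median of the mature oligodendrocyte markers. Sox8 minus the mean of the markers went from -2.03 ± 0.25 to -1.45 ± 0.19 (SD, n = 4 each), a shift of 0.58 (exact p = 0.0286, adjusted over 10 such contrasts 0.0952). Sox10 minus the markers shifted by 0.49 (exact p = 0.0286, n = 4 each, adjusted 0.0952). For each, all 4 HFD mice lay above all 4 normal mice, and neither passed after adjustment. Here too a contrast could pass only if most of the 10 reached the smallest p, whatever the size of its shift.

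Precursor markers and lineage factors were mixed. Among 8 markers of oligodendrocyte precursors 2 rose and 3 fell (median -0.21). Gpr17, a receptor of committed precursors, fell by 0.61 (9.0 to 9.9 FPKM against 13.0 to 15.0 in normal mice), Lhfpl3 fell by 0.54, and Vcan, a matrix proteoglycan, fell by 0.41. Among 12 transcription factors and chromatin factors of the lineage, 3 rose and 2 fell (median -0.10). Olig2, a partner of Sox10, rose by 0.31. Nkx2-2, a homeodomain factor, fell by 0.74 from a mean of 2.00 to 1.20 FPKM. Chd7, a chromatin remodeller that works with Sox10, fell by 1.18, and its normal mice spread from 3.0 to 11.5 FPKM. Without normal mice 2 and 3 the same lists gave 2 higher and 1 lower, and 3 higher and 0 lower. Adding the cerebellar covariate gave 0 higher and 1 lower, and none, with 3 of the lineage factors at an unadjusted p below 0.05 by limma.

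Astrocyte markers were mixed too, with 3 higher and 4 lower of 12 (median -0.13). Aqp4, the water channel of astrocyte endfeet, fell by 0.88, Slc4a4, a bicarbonate transporter, by 0.56, and Gfap by 0.39, while Gjb6, a connexin, rose by 0.28. With the cerebellar covariate none of the 12 passed limma's adjusted threshold, 2 had an unadjusted p below 0.05 and the median was 0.04. Without normal mice 2 and 3, 4 passed (2 higher, 2 lower) and the median was 0.0059. Sox9 minus the mean of these markers shifted by 0.25 (exact p = 0.0286, n = 4 each, adjusted 0.0952), with no overlap between diets. Sox2 shifted by 0.23 against the same markers (exact p = 0.0571, adjusted 0.122, n = 4 each), Sox1 by 0.18 (exact p = 0.0857, adjusted 0.122, n = 4 each) and Sox21 by 0.14 (exact p = 0.229, adjusted 0.254, n = 4 each).

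**Figure D4:**
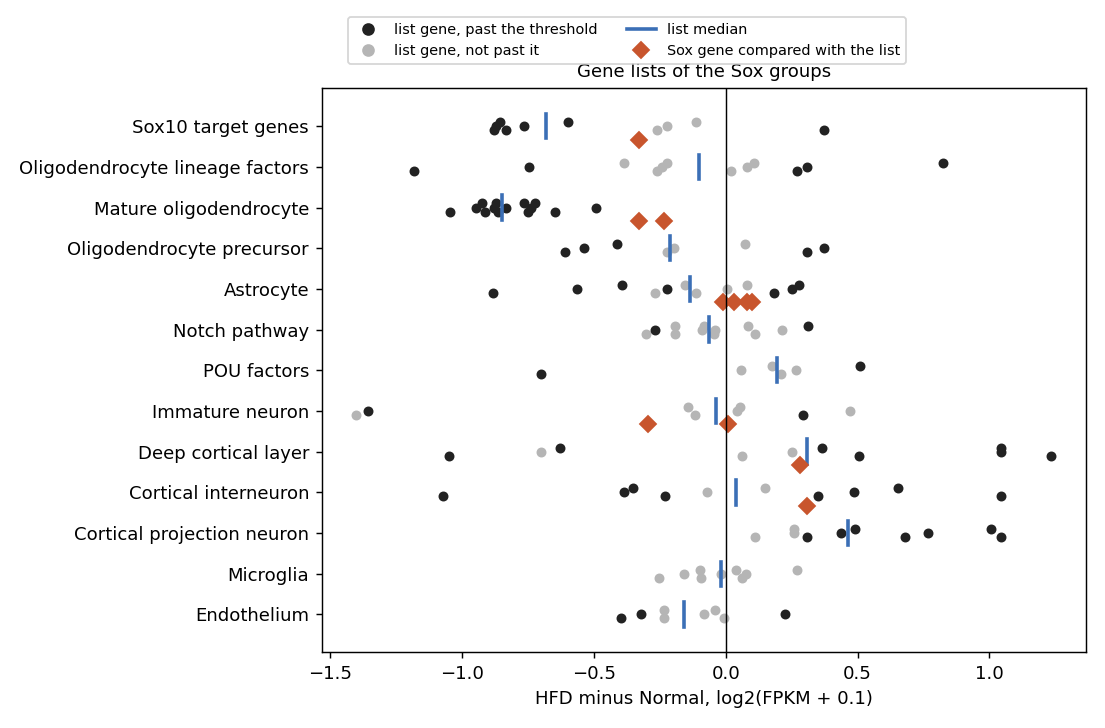
Difference between diets (HFD minus Normal, log2(FPKM + 0.1)) of the genes of 13 lists, with black points past the adjusted threshold of limma, grey points not past it, blue bars at list medians and orange diamonds for the Sox genes set against that list. The mature oligodendrocyte markers lie around a median of -0.85, to the left of Sox8 (-0.23) and Sox10 (-0.33).

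Sox5 and Sox6 belong to group D, whose proteins lack an activation domain and act as dimers. Each is spread over a long locus, Sox5 over 953553 bp of chromosome 6 (143828425 to 144781977, minus strand) with 15 exons and Sox6 over 567925 bp of chromosome 7 (115470872 to 116038796, minus strand) with 16 exons. A noncoding gene on the opposite strand, Sox5os1, shares 1330 bp of exon with Sox5. Sox5 sets the identity of deep layer projection neurons in the developing cortex. Its FPKM was 8.3, 6.6, 6.8 and 8.0 in normal mice 1 to 4, and 8.8, 9.4, 9.0 and 8.8 in HFD mice 1 to 4. Every HFD mouse lay above every normal mouse, and normal mice 2 and 3, those with the highest cerebellar markers, were lowest. The mean rose from 7.43 ± 0.85 (SD, n = 4) to 9.00 ± 0.28 (SD, n = 4), a log2 difference of 0.28 (SE 0.08, adjusted p = 0.0269 by limma). It was 0.14 without normal mice 2 and 3 (adjusted p = 0.157) and 0.02 with the cerebellar covariate (adjusted p = 0.933). With a mouse left out, the call held in 3 of 8 fits, those without normal mouse 1, normal mouse 4 or HFD mouse 4, and the highest adjusted p was 0.0743 without HFD mouse 2.

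Sox6, which acts in interneurons from the medial ganglionic eminence and in oligodendrocyte precursors, was 5.2, 3.9, 4.3 and 4.2 FPKM in normal mice 1 to 4, and 5.8, 5.1, 5.9 and 5.0 in HFD mice 1 to 4. Normal mouse 1 lay among the HFD mice, and the other normal mice lay below them. The mean rose from 4.40 ± 0.56 (SD, n = 4) to 5.45 ± 0.47 (SD, n = 4), a log2 difference of 0.31 (SE 0.10, adjusted p = 0.0425 by limma). The call held in 2 of 8 fits with a mouse left out, those without normal mouse 1 and without HFD mouse 4, and the adjusted p was 0.108 without normal mouse 2. It was 0.0516 after quantile normalization, 0.229 without normal mice 2 and 3, and 0.921 with the cerebellar covariate (log2 difference 0.03).

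Markers of the neurons in which these factors act moved in both directions. Of 10 deep layer markers 5 rose and 2 fell (median 0.31). Fezf2, which specifies subcerebral projection neurons, rose by 1.23 (5.3 to 9.6 FPKM in normal mice and 15.7 to 20.4 in HFD mice), Ntsr1 and Tbr1, both of layer VI, rose by 1.04 each, and Syt6 fell by 1.05. Sox5 minus the mean of these markers shifted by 0.07 (exact p = 0.229, adjusted 0.254, n = 4 each). Of 10 cortical projection neuron markers 7 rose and none fell (median 0.46), among them Tbr1, Cux2 (0.77) and Emx1 (0.68). Of 10 interneuron markers 4 rose and 4 fell (median 0.04). Satb1 rose by 1.04, Vip by 0.65 and Lhx6, a factor upstream of Sox6, by 0.49, while Pvalb fell by 1.07. Pvalb was 140 and 146 FPKM in normal mice 2 and 3, those with the highest cerebellar markers, 50.1 and 60.5 in normal mice 1 and 4, and 33.4 to 55.6 in HFD mice. With the cerebellar covariate 1 of 10 deep layer markers (median 0.19) and 1 of 10 interneuron markers passed. In that fit 4 of each list had an unadjusted p below 0.05 by limma. Without normal mice 2 and 3, 6 deep layer markers (median 0.18) and 7 interneuron markers passed. Sox6 minus the mean of the interneuron markers shifted by 0.25 (exact p = 0.0857, adjusted 0.122, n = 4 each). The projection neuron count was 4 of 10 without normal mice 2 and 3 and 0 with the cerebellar covariate, where 1 had an unadjusted p below 0.05 by limma. The part of regional tissue in the values of Sox5 and Sox6 was not tested beyond these fits.

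Sox4 and Sox11 belong to group C with Sox12, which is described with the other Sox genes. They are strong activators in newborn neurons, and each is transcribed from 1 exon. Sox4 lies on chromosome 13 (28948919 to 28953713, minus strand). It was 5.0, 3.3, 4.1 and 5.8 FPKM in normal mice 1 to 4, and 3.6, 4.0, 3.8 and 3.1 in HFD mice 1 to 4. The normal mice spread the most among the 10 genes relative to their mean, with mouse 2 inside the range of the other diet and mouse 3 just above it. The mean was 4.55 ± 1.09 (SD, n = 4) and 3.63 ± 0.39 (SD, n = 4), and the log2 difference of -0.30 did not pass (SE 0.16, 95% interval -0.66 to 0.07, adjusted p = 0.186 by limma). Without normal mouse 2 it was -0.44 (adjusted p = 0.0459) and without normal mice 2 and 3 it was -0.56 (adjusted p = 0.0193), so that Sox4 passed. An antisense gene, Gm26735, shares 2616 bp of exon with the 4795 bp of Sox4, so reads may have been split or mixed there.

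Sox11, on chromosome 12 (27334264 to 27342574, minus strand), was 3.6, 3.9, 3.3 and 3.7 FPKM in normal mice 1 to 4, and 3.8, 3.9, 2.9 and 4.1 in HFD mice 1 to 4. HFD mouse 3 was lowest and mouse 4 highest of all. The log2 difference was 0.01 (95% interval -0.25 to 0.27, adjusted p = 0.955 by limma). Of 8 immature neuron markers 1 rose, Stmn1 (0.29), a microtubule regulator, and 1 fell, Cd24a (-1.36), a surface protein that ependymal cells also carry (median -0.04). Of the 8, 1 passed with the cerebellar covariate, and the number that rose was 0 to 2 with a mouse left out. Against these markers Sox4 shifted by -0.03 (exact p = 0.914, adjusted 0.914, n = 4 each) and Sox11 by 0.28 (exact p = 0.0857, adjusted 0.122, n = 4 each). The 8 genes of this list summed to 619.6 to 691.4 FPKM in normal mice and 690.1 to 741.5 in HFD mice. Which cells this RNA came from was not tested. The mean of this list takes in Cd24a and also Neurod1, which is on the cerebellar list too. All tested cerebellar markers differed by -0.94 or lower. The part of regional tissue in these shifts was not tested.

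None of the group B genes, each of 1 exon, passed the test. Sox2, which keeps neural stem cells and is made by adult astrocytes, lies on chromosome 3 (34650405 to 34652461, plus strand). In normal mice 1 to 4 it was 12.8, 13.6, 14.8 and 14.8 FPKM, and in HFD mice 1 to 4 it was 15.6, 14.9, 15.1 and 13.6. The ranges overlapped, although 3 HFD mice lay above every normal mouse. The mean was 14.0 ± 0.98 (SD, n = 4) and 14.8 ± 0.85 (SD, n = 4), with a log2 difference of 0.08 (95% interval -0.07 to 0.23, adjusted p = 0.368 by limma). Sox2 lies inside the long noncoding gene Sox2ot on the same strand, with no exon in common. Sox2ot was 16.6 ± 1.48 (SD, n = 4) and 15.1 ± 0.99 (SD, n = 4), a log2 difference of -0.13 (adjusted p = 0.196 by limma).

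Sox1, on chromosome 8 (12395295 to 12400126, plus strand), was 1.8, 2.3, 2.2 and 2.1 FPKM in normal mice 1 to 4, and 2.4, 2.1, 2.3 and 1.8 in HFD mice 1 to 4. The diets spanned nearly the same range. The log2 difference was 0.03 (95% interval -0.25 to 0.31, adjusted p = 0.872 by limma). The noncoding RNA that spans it, RP24-473D4.1, had a log2 difference of 0.22 (adjusted p = 0.229 by limma). Sox21, the B2 gene, which acts against B1 factors, lies on chromosome 14 (118233232 to 118237030, minus strand). It was 2.4, 2.7, 2.2 and 2.6 FPKM in normal mice 1 to 4, and 2.5, 2.6, 2.3 and 2.4 in HFD mice 1 to 4. All HFD mice lay inside the normal range. Gm4675, on the opposite strand, shares 713 bp of exon with Sox21. The log2 difference was -0.01 (95% interval -0.23 to 0.21, adjusted p = 0.94 by limma). These intervals bound the differences and do not show that the levels were the same.

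RefSeq promoter windows were found for 8 of the 10 genes, 13 windows in all with 6 of Sox6. The windows of the B genes were rich in CpG, with 37 for Sox1, 27 for Sox2 and 22 for Sox21, and that of Sox11 held 21 and that of Sox4 held 12. The only Sox5 window held 3. It lies at 143947057 to 143947356, inside the gene and far from its outermost annotated start at 144781977. In all, 8 of 13 windows were above the median of 7. The HMG box motif was searched on both strands as AACAATG and as AACAAAG, which share their first letters AACAA and differ in the next. AACAATG was in 3.78% and AACAAAG in 5.85% of all windows, and either in 9.36%. Among the members 4 of 13 windows held a match, and all 4 were alternative starts of Sox6. A match describes these letters and no binding.

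Other genes of the family were examined beside the 10. Of 9 further Sox genes looked for, 4 had values (median log2 difference 0.27). Sox12, the remaining group C gene, was 2.4, 2.2, 2.1 and 2.5 FPKM in normal mice 1 to 4 and 3.2, 3.2, 3.9 and 2.9 in HFD mice 1 to 4. It did not overlap between diets and rose by 0.50 (SE 0.11, adjusted p = 0.00897 by limma), a larger difference than that of any of the 10. It was 0.41 without normal mice 2 and 3 (adjusted p = 0.0664) and 0.32 with the cerebellar covariate (adjusted p = 0.334). Sox13, of group D, differed by -0.06 (adjusted p = 0.824), and the vascular genes Sox17 and Sox18 by 0.38 (adjusted p = 0.177) and 0.15 (adjusted p = 0.633). Sox17 passed without HFD mouse 4 (0.56, adjusted p = 0.0365 by limma).

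Partners and relatives of the Sox factors were read against the 33.1% of all genes called. Among 6 POU factors, which share composite sites with Sox proteins, 2 passed (median 0.19). Pou3f4 fell by 0.70 (adjusted p = 0.0193 by limma), from 2.1 to 2.8 FPKM in normal mice to 1.2 to 2.1 in the HFD group. None of the 6 passed without HFD mouse 1, with a block on the replicate number or with the cerebellar covariate. In each of these fits 1 POU factor fell at an unadjusted p below 0.05 by limma. Pou3f1 rose by 0.51 (adjusted p = 0.0497 by limma) with overlapping ranges, 2.4 to 4.0 FPKM in normal mice and 3.9 to 5.9 in the HFD group. The count of POU factors that rose was 0 to 3 with a mouse left out, 0 without normal mouse 2 or 3 or HFD mouse 1, 2 or 3, and 0 with the cerebellar covariate. At an unadjusted p below 0.05 by limma, 1 or 2 rose in those fits that left out a mouse and 0 with the covariate. Of 2 TCF/LEF genes measured, which carry the same kind of HMG box, none passed limma's adjusted threshold and 1 had an unadjusted p below 0.05. These were Tcf7l2 (-1.32, adjusted p = 0.073) and Lef1 (-0.11, adjusted p = 0.78), which are on the thalamic list too. Tcf7l2 was 1.4, 5.4, 4.7 and 1.2 FPKM in normal mice 1 to 4 and 1.0, 1.7, 1.0 and 0.5 in HFD mice 1 to 4. The median of the 2 genes was -0.72, and -0.03 without normal mice 2 and 3. Among 12 genes of the Notch pathway, which acts with Sox2 and Sox9 in progenitors, the ligand Jag2 rose by 0.31 and the target Hey1 fell by 0.27 (median -0.06). Neither Jag2 nor Hey1 overlapped between diets.

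For each Sox gene that passed, the 3 genes with the most similar pattern over 8 mice were found by the root mean square difference of log2(FPKM + 0.1) after centring each gene. For Sox5 these were Fbxw7 (0.03), Slc17a5 (0.04) and Ppm1k (0.04). Those of Sox6 were Ptp4a3, Klhl26 and Lrp4 (0.07 each), and those of Sox10 were Desi1, Aff1 (0.06 each) and Slc44a1 (0.07). Next to Sox8 stood Atp6v0a2 (0.03), Slc25a1 (0.04) and 1810055G02Rik (0.05). Within a distance of 0.1 lay 777 genes for Sox5, 778 for Sox8, 84 for Sox6 and 86 for Sox10. The nearest genes of each were thus among many, most of all for Sox5 and Sox8. The patterns include the diet difference by which these Sox genes were chosen.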

How the data were processed

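Total RNA of cortex was depleted of rRNA, and stranded libraries were read from both ends in 100 cycles. The authors checked reads with FastQC, used Trimmomatic for trimming and STAR for alignment to mm10, and deposited FPKM values computed by Cuffnorm on the GENCODE M17 basic annotation (GRCm38.p6). Tool versions are not given in the sources used. The deposited FPKM are rounded to 0.1, so the depth cannot be read from them and intervals of read counts were not computed.

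From these values, log2(FPKM + 0.1) of all 8 mice was fitted with limma 3.58.1 in R 4.3.3 (variance trend, no covariate, two-sided), and p was adjusted over 13982 genes whose FPKM averaged 1 or more and was never 0, which left out 14 genes. The constant understates differences of low genes. The procedure was tested on simulated data. Exact permutation tests used Python 3.11.15 with numpy 2.4.6 and pandas 2.3.3, and figures matplotlib 3.10.9. Gene coordinates were taken from the GENCODE M21 release (GRCm38), where 13977 of the genes were found, and promoters from RefSeq.

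The members and the 20 gene lists were chosen with earlier results of these data known. Named were the 10 Sox genes, other Sox genes, RNAs that overlap one, at most 4 genes of a list (the largest differences among those that passed, otherwise the highest FPKM) and the 3 nearest genes of each Sox gene that passed. Single members named for a value of 0, and Neurod1 as a gene shared between lists, were added after values were seen. Some genes that this rule names are not reported here. Alternatives were added constants of 0.01 and 1, no filter or a mean of at least 5, median-ratio and quantile scaling, a fit without the trend, a block on the replicate number, a cerebellar covariate and each mouse left out. Same-numbered mice of the 2 diets did not deviate together (correlations from -0.11 to -0.03 over genes). The labels do not say what the numbers stand for, and no pairing was assumed.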

Additional observations from a re-analysis of the deposited data

Results flagged for a closer look

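In 68 groups of 4 mice examined, 4 held a mouse that stood far from the other 3 of its diet, where chance flags about 1 in 20 groups. Sox8 was 16.3 FPKM in HFD mouse 4 and 18.5 to 18.8 in the others, and this mouse also had the highest choroid plexus markers of its diet. Without it the log2 difference of Sox8 between diets still passed limma's adjusted threshold. Sox13 was 2.0 FPKM in HFD mouse 2 and 1.4 in each of the others, which spans few rounding steps. The log2 level of Sox8 minus that of Sox9 was 2.37 in HFD mouse 1 and 2.49 to 2.52 in the others. Sox9 minus the mean of the astrocyte markers was -4.41 in HFD mouse 4 and -4.23 to -4.22 in the others.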

How the results depend on the processing

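The count of 4 Sox genes past limma's adjusted threshold (2 higher, 2 lower) varied with several choices. An added constant of 1 or 0.01, no filter and median-ratio rescaling gave 4 as before. There were 3 with a mean FPKM of at least 5 (1 higher, of 4 members tested), quantile normalization (1 higher), no variance trend (1 lower) and the replicate block (1 higher). With the cerebellar covariate 0 passed (0 higher, 0 lower). Without normal mice 2 and 3, chosen after seeing the data, 1 passed (0 higher, 1 lower). With a mouse left out, 1 to 3 passed, 0 to 2 higher and 1 to 2 lower. Over all genes, 4626 passed, 544 with the covariate and 2743 without normal mice 2 and 3. Of these, 997 changed by over 50%, and this count was 603 with a constant of 1, 422 with a mean of at least 5, 264 with the covariate and 604 without normal mice 2 and 3. The cause of these shifts was not tested.

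The replicate block called 3390 genes and lost Sox5 (adjusted p = 0.0645 by limma), and the labels do not say that the numbers pair the mice. The other Sox calls were kept in that fit. For the exact tests the block cannot give a p below 0.125. With a mouse left out, and before adjustment, some exact calls crossed the threshold: the shift of Sox9 minus Sox10 ranged from 0.36 to 0.51, of Sox8 minus mature oligodendrocyte markers from 0.50 to 0.68, of Sox10 minus the same from 0.43 to 0.56, and, against astrocyte markers, of Sox9 from 0.22 to 0.30, of Sox2 from 0.18 to 0.30 and of Sox21 from 0.049 to 0.20. That of Sox6 minus interneuron markers ranged from 0.20 to 0.33. Sox8 minus Sox9 stayed past the unadjusted threshold in 8 of 8 such tests. No called value changed sign. Depth is unknown, and steps of 0.1 FPKM limit the lowest genes.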
